A study of Mus musculus with 4 samples.

Results

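Myh6 encodes the alpha cardiac myosin heavy chain, and 15 of the 558 regions counted in a table of ac4C-captured heart RNA overlapped it. These 15 were all the regions with Myh6 as their overlapped gene, lines with the same listed gene and the same 4 counts being taken as 1 region. None of the 15 overlapped another named gene. The RNA came from whole hearts of C57BL/6 mice and was pulled down by an ac4C antibody. ac4C, or N4-acetylcytidine, is a modified RNA base made by the acetyltransferase NAT10. The libraries fell into 2 groups, 2 labelled NAT10 knockout and 2 labelled control. All 4 carried the treatment label HFD+STZ+Exercise in a study of diabetic heart muscle disease, so no comparison of that treatment or of exercise was possible. The labels do not name the cells in which NAT10 was deleted, the allele, any Cre driver, or the age of the mice. Nat10 itself was not analysed here, which leaves the knockout labels unchecked. Libraries without capture were not used here either, and RNA abundance and ac4C therefore cannot be told apart in any value below.

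The alpha heavy chain is the motor of the thick filament. Its head hydrolyses ATP and pulls on actin, and its tail packs with other tails into the filament shaft. In the ventricle of the adult mouse it is the main heavy chain, while the slower beta chain, encoded by the neighbouring gene Myh7, is the main one before birth. An intron of Myh6 also holds the gene of a microRNA, miR-208a, which is made with its host in heart muscle.

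Beside the overlapped gene, the table lists a second gene with a position for each region, and these differed among the Myh6 regions. Of the 15 regions, 6 were listed with Myh6 itself, 8 with Mir208a and 1 with Gm49130, an antisense gene at the 3′ end of Myh6. As the table gives positions, on chromosome 14 of an unnamed build, Myh6 runs from 55179378 to 55204098 on the minus strand, Mir208a from 55186517 to 55186599 on the minus strand, and Gm49130 from 55177812 to 55180309 on the plus strand. The spacing is that of GENCODE M21, an annotation of GRCm38: the start of Mir208a lies 7139 bases after that of Myh6 in both, and Gm49130 shares 932 bases with the Myh6 span in both. In GENCODE M21 the full-length Myh6 transcript with that span has 39 exons, and Mir208a lies in intron 29, which is 542 bases long, with 70.8% of the transcript's span before it. Neither the way the listed gene was chosen nor the place of each region within Myh6 is given in the sources used here. The listing therefore sorts the regions but does not place them.

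Because 8 regions carry the name of Mir208a, its RNA is shown from RefSeq (GRCm38.p6, chr14:54949060-54949142, minus strand). In the hairpin, of 83 bases, the capitals mark the 3′ arm, and in the 2 mature arms they mark the seed, bases 2 to 8, with which a microRNA pairs to its targets.
Mir208a hairpin: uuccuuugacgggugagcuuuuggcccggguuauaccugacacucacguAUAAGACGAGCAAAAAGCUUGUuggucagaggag
mmu-miR-208a-3p: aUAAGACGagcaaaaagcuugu
mmu-miR-208a-5p: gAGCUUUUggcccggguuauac
All 8 regions have Myh6 as their overlapped gene, so their counts are described as Myh6 counts and not as a level of the microRNA.

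The base that NAT10 acetylates is cytidine, and ac4C has been described in runs of codon-like triplets that open with C. The coding sequence of Myh6, 5814 bases long in GENCODE M21, holds 25.2% C, against a median of 25.7% over 20850 mouse coding sequences, 1 per gene. Its longest run of the motif CNN (C followed by any 2 bases, read on the mRNA strand alone, in any frame) has 9 repeats. It lies in exon 5 of that transcript at chr14:54963621-54963647 (GRCm38, minus strand), and the capitals mark the C that opens each repeat.
Myh6 CNN run: CctCttCtgCgtCacCgtCaaCccCta
A run at least this long was found in 13.8% of the coding sequences, and in 32.6% of the 1106 whose length was within 1.5 times that of Myh6. The match is a description of the letters, and whether any counted region covers it is not known from the table.

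Over its 15 regions Myh6 held 45930 and 28531 counts in the NAT10 knockout libraries, against 27312 and 30290 counts in the control libraries. These were 4.99% and 4.11% of all counts in the table in knockout, against 4.05% and 4.41% in control. The groups overlapped, since 1 knockout library had the highest share and the other lay between the controls. The mean share was 4.55% ± 0.62 in knockout and 4.23% ± 0.258 in control (SD, n = 2 each). That difference of 0.319 percentage points had an exact two-sided permutation p of 0.667, where 2 libraries against 2 allow no p below 0.333. It rested on 1 library, since without knockout replicate 1 the difference was -0.119 percentage points. The 95% Wilson interval of a share covers counting error only. That of knockout replicate 1 ran from 4.94% to 5.03%, far narrower than the gap to knockout replicate 2. The totals behind these shares include mitochondrial rRNA and 18S regions. With those regions left out, Myh6 held 8.42% and 7.31% in knockout, against 7.12% and 7.66% in control.

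Division by TMM-scaled totals, a scaling that sets the bulk of regions equal between libraries, gives levels in CPM, and it brought the 4 values together. Summed Myh6 stood at 42102 and 44733 TMM-scaled CPM in knockout, against 44116 and 44099 CPM in control. One knockout library lay below both controls and the other above both. The log2 fold change of knockout over control was -0.02 ± 0.13 (SE; 95% interval -0.27 to 0.23; edgeR quasi-likelihood adjusted p = 0.965 over 390 genes), where 4.87% of genes passed at an adjusted p below 0.05. The interval leaves room for a change of the size of its bounds in either direction. The sign depended on the scaling and on 1 library. The value was 0.10 with totals alone, 0.17 with scaling to the 18S rRNA region and 0.02 without knockout replicate 1. The 18S counts come from ac4C-captured RNA after removal of ribosomal RNA. Whether 18S is a steady reference between knockout and control was not tested.

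The 15 regions differed far more from each other than between groups. The highest had 10.1 to 13.2 times the count of the lowest, depending on the library. Region lengths are not in the table, so these are counts per region and say nothing of density along the mRNA. Regions are numbered here from 1, the highest mean count, to 15, the lowest. Region 1, listed with Mir208a, had 8546 and 5358 counts in knockout, against 5373 and 5761 counts in control. Region 15, listed with Myh6, had 840 and 529 counts in knockout, against 406 and 500 counts in control. Among all regions of the table, region 1 ranked 12 and 17 by count in knockout and 17 and 17 in control, and region 15 ranked 94 and 94 in knockout and 108 and 103 in control. Even the lowest Myh6 count, 406, was well above the median count per region, which was 143.5 and 82 in knockout and 84 and 92.5 in control.

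**Figure D1:**
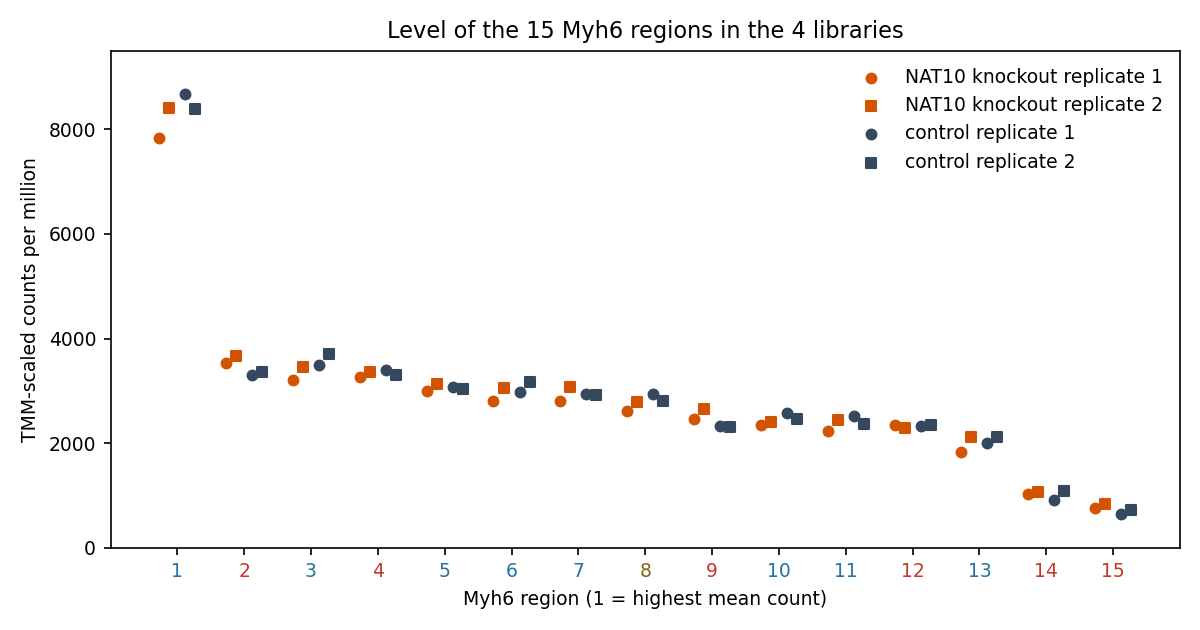
TMM-scaled CPM of each Myh6 region in each library, regions ordered by mean count. Orange points are the 2 NAT10 knockout libraries and dark points the 2 control libraries (circle replicate 1, square replicate 2), and tick labels are red for regions listed with Myh6, blue for Mir208a and brown for Gm49130. Region 1 stands alone between 7834 and 8679 CPM, and the groups lie close together in every region.

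Among the 6 regions listed with Myh6, the knockout libraries lay above both controls in 3 by TMM-scaled level. Region 2 had 3532 and 3663 CPM in knockout, against 3309.7 and 3356 CPM in control. Region 9 had 2460.3 and 2645 CPM in knockout, against 2326 and 2302 CPM in control. In both, each knockout library exceeded each control by a margin larger than the gap between the controls. Region 15 had 769.99 and 829 CPM in knockout, against 656 and 728 CPM in control, again without overlap. The other 3 overlapped. Region 4 had 3266 and 3365 CPM in knockout, against 3395 and 3306 CPM in control, and region 12 had 2350.3 and 2292 CPM in knockout, against 2323 and 2347 CPM in control. Region 14 had 1035 and 1071 CPM in knockout, against 922 and 1092 CPM in control, the 2 controls lying further apart than the 2 knockouts.

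Among the 8 regions listed with Mir208a, the knockout libraries lay below both controls in 2 and above both in none. Region 3 had 3200.03 and 3456 CPM in knockout, against 3486 and 3711 CPM in control. Region 10 had 2351 and 2413 CPM in knockout, against 2583 and 2453 CPM in control. In both, the gap between the nearest libraries of the groups was smaller than the spread within a group. The highest region, 1, had 7834 and 8401 CPM in knockout, against 8679 and 8387 CPM in control. Region 5 had 2995 and 3131 CPM in knockout, against 3080.3 and 3036 CPM in control, and region 6 had 2802 and 3051 CPM in knockout, against 2970.4 and 3174 CPM in control. In each of these the groups overlapped, and knockout replicate 1 was the lowest of the 4 libraries. Region 7 had 2814 and 3081 CPM in knockout, against 2935 and 2915 CPM in control. Region 11 had 2233 and 2436 CPM in knockout, against 2517 and 2370.2 CPM in control. The lowest of this listing, region 13, had 1838 and 2113 CPM in knockout, against 2001 and 2115 CPM in control. Knockout replicate 1 was again lowest in these 3.

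Region 8, the 1 listed with Gm49130, had 2622 and 2786 CPM in knockout, against 2933 and 2807 CPM in control. Both knockout libraries lay below both controls, and the nearest values, 2786 and 2807 CPM, were closer than the libraries of either group. The strand setting of the counting is not known, so reads from Myh6 and from its antisense gene cannot be told apart where they overlap. In all, groups did not overlap in 6 of the 15 Myh6 regions, 3 with knockout higher and 3 with knockout lower, where 47.5% of all regions did not overlap.

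By edgeR's quasi-likelihood test over all 558 regions, 0 of the 15 Myh6 regions passed, where 3.94% of all regions did, 2.33% upward and 1.61% downward. At an unadjusted p below 0.05 the count was also 0 of 15, against 19% of all regions, and the DESeq2 Wald test passed 0 of 15, with 0 at an unadjusted p below 0.05. The fitted log2 fold change of knockout over control was above 0 in 6 regions and below 0 in 9, where 51.4% of all regions were above 0. The median was -0.02, beside 0.01 over all regions. The largest positive value was that of region 15, at 0.21 ± 0.12 (SE; adjusted p = 0.392), followed by region 9 at 0.14 ± 0.13 (adjusted p = 0.602). Region 2 stood at 0.11 ± 0.15. The largest negative values were those of region 3, at -0.11 ± 0.15 (adjusted p = 0.707), and region 8, at -0.09 ± 0.14 (adjusted p = 0.758). The most counted region, 1, stood at -0.07 ± 0.19, with the widest SE of the 15. Over the 15 regions the 95% intervals reached from -0.45 to 0.46 on the log2 scale, that is from 0.732-fold to 1.38-fold.

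**Figure D2:**
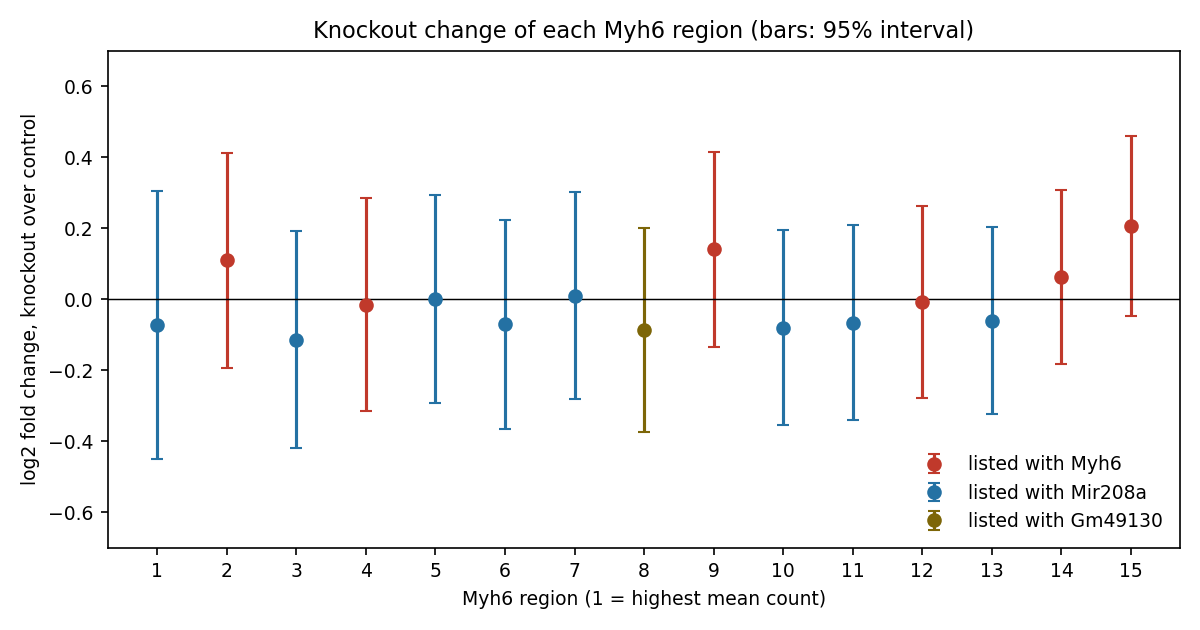
Log2 fold change of NAT10 knockout over control for each Myh6 region, with points for the fitted value and bars for the 95% interval from edgeR's quasi-likelihood fit, coloured by the listed gene. All 15 bars cross 0, and the fitted values lie between -0.11 and 0.21.

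The fitted values of Myh6 lay close together beside those of other genes covered by many regions. Their SD was 0.09 on the log2 scale over 15 regions, compared with 0.12 over 22 regions of Ttn, the giant filament protein titin, and 0.23 over 7 regions of Atp2a2, the calcium pump of the sarcoplasmic reticulum. Over all 558 regions it was 0.45. Mean counts ran from 569 to 6259.5 in Myh6 regions, from 243.5 to 1111 in Ttn regions and from 667 to 3826 in Atp2a2 regions, so the 3 genes differ in depth and the SDs are given as a description.

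Each region's share of the Myh6 counts does not depend on how libraries are scaled. Region 1 held 18.6% and 18.8% of the Myh6 counts in knockout, against 19.7% and 19.02% in control. Region 2 held 8.39% and 8.19% in knockout, against 7.50% and 7.61% in control, and region 9 held 5.84% and 5.91% in knockout, against 5.27% and 5.22% in control. Regions 2 and 9, both listed with Myh6, had the largest gains of the 15, of 0.732 and 0.632 percentage points. These were larger than the SD within either group, but an SD of 2 libraries is itself uncertain. In edgeR's diffSpliceDGE, which tests a region against the rest of its gene, their unadjusted p was 0.400 and 0.285. Region 3 held 7.60% and 7.72% in knockout, against 7.90% and 8.42% in control. Region 15 held 1.83% and 1.85% in knockout, against 1.49% and 1.65% in control. Region 8 held 6.23% in both knockout libraries, against 6.65% and 6.37% in control. Shares did not overlap between the groups in 8 of the 15 regions: knockout was higher in 5 (regions 2, 5, 7, 9 and 15) and lower in 3 (regions 1, 3 and 8). Among the 175 regions of the 60 genes with at least 2 regions, 46.9% did not overlap.

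The shares of the 15 regions make up the whole of the Myh6 counts in each library, so a higher share in some regions goes with a lower share in others. The mean share was higher in knockout in 6 of the 6 regions listed with Myh6, from 0.0427 percentage points in region 4 to 0.732 in region 2. It was lower in 6 of the 8 listed with Mir208a, and higher in regions 5 and 7 by 0.123 and 0.155 percentage points. It was also lower in the 1 listed with Gm49130. Together the regions listed with Myh6 held 31.9% and 31.0% of the Myh6 counts in knockout, against 29.3% and 29.8% in control. The regions listed with Mir208a held 61.9% and 62.8% in knockout, against 64.04% and 63.9% in control. These sums are near complements, since the region listed with Gm49130 holds the rest, and count as 1 observation, in which the groups did not overlap. On the scale of the edgeR fit, 4 of the 6 regions listed with Myh6 stood above 0 and 2 below.

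The share of the regions listed with Myh6 averaged 31.4% ± 0.612 in knockout and 29.5% ± 0.327 in control (SD, n = 2 each), a difference of 1.88 percentage points. The exact two-sided permutation p was 0.333, the smallest that 2 against 2 libraries allow, so the design cannot pass a threshold of 0.05. The nearest libraries were knockout replicate 2, with a 95% Wilson interval of 30.5% to 31.5%, and control replicate 2, with 29.3% to 30.3%. These intervals cover counting error only. The difference stayed between 1.45 and 2.32 percentage points when any 1 library was left out, and was 1.44 without region 2. As the groups did not overlap, leaving out 1 library could not reverse its sign. The sorting by listed gene was chosen after the region values were seen.

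**Figure D3:**
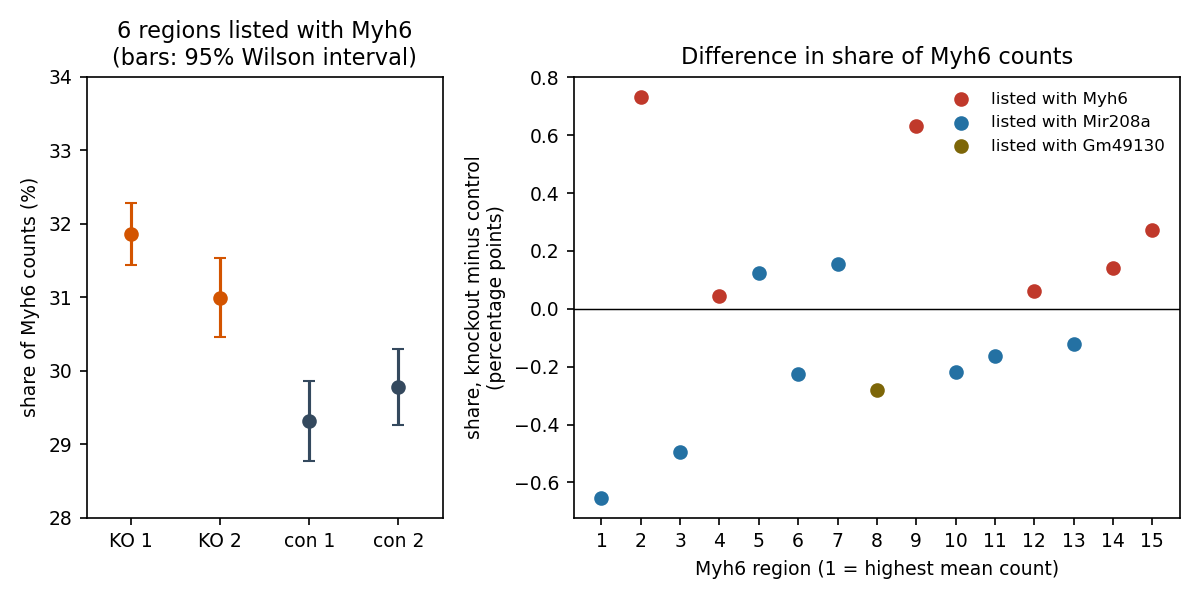
Left: share of the Myh6 counts held by the 6 regions listed with Myh6 in each library, in percent, with 95% Wilson intervals (KO, NAT10 knockout; con, control; the axis starts at 28%). Right: difference in each region's mean share, knockout minus control, in percentage points, coloured by listed gene; the 6 regions listed with Myh6 lie above 0, and 6 of the 8 listed with Mir208a lie below it.

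The test of each region against the rest of its gene did not pass any Myh6 region. In edgeR's diffSpliceDGE over 175 regions, 0 of 15 Myh6 regions passed and 0 had an unadjusted p below 0.05, where 0% and 1.71% of all regions did. The smallest unadjusted p was that of region 15, at 0.114 with a log2 change of 0.16 relative to the rest of Myh6. Region 9 stood at 0.11 and region 2 at 0.09. The gene as a whole had an adjusted p of 0.673 by the gene-wise F form and 0.999 by the Simes form. This fit takes its spread from all regions with dispersions shared across the table, so a variation that the Myh6 regions of 1 library have in common counts as spread in it.

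The spread between replicates was uneven among libraries. Myh6 counts of knockout replicate 1 were 1.49 to 1.75 times those of replicate 2 over the 15 regions, while the total counts of the table differed 1.33-fold. In control the count ratios of replicate 1 over 2 ran from 0.761 to 0.957, around a ratio of totals of 0.983. Within Myh6, the chi-square per degree of freedom between replicates was 1.36 in knockout and 2.44 in control (14 degrees of freedom), so the division of counts among the regions varied more than independent counts would between the controls. Of the 60 Myh6 counts 29 were even, while of all counts below 200 between 77.9% and 83.3% per library were even. The chi-square and the Wilson intervals take counts as independent. The excess of even counts was measured among counts below 200, and the lowest Myh6 count was 406. Whether the Myh6 counts depart from independence was not tested. Their counting error may be larger than the chi-square and the intervals allow for.

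The authors' deposited table carries a comparison of its own, and its headers do not state which group is on top. Its log2 values were read here as control over knockout: in 20 of the 22 regions that passed the edgeR test, the sign in the authors' deposited table was opposite to that of knockout over control. The directions that follow rest on that reading. In the authors' deposited table, 8 of the 15 Myh6 regions were given as higher in control and 7 as higher in knockout, whereas 23.1% of all regions were given as higher in control. The log2 values of the authors' deposited table ran from -0.30 (region 14) to 0.19 (region 15), with p-values from 0.0339 (region 9) to 0.785 (region 12) and a q-value of 1 for each. In the authors' deposited table a single Myh6 region, 1 of 15, had a p below 0.05, where 27.2% of all regions did. The direction in the authors' deposited table was that of the edgeR fit in 10 of 15 Myh6 regions and in 71.0% of all regions. The direction differed in regions 2, 6, 12, 13 and 15. In regions 2 and 15 the authors' deposited table had log2 values of 0.02 and 0.19, higher in control as read here, while both knockout libraries exceeded both controls in counts and in share of the Myh6 counts. No source used here names the tool behind those values.

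Other sarcomere genes were counted from lists chosen with earlier results of these data known. Of 16 thick filament genes and their helpers 8 were measured, of which 2 rose in knockout and 0 fell (median log2 fold change 0.22, beside 0.02 over all 390 genes, of which 4.87% passed). Those that rose were the 2 ventricular light chain genes whose products bind the neck of the myosin heavy chain. Myl2 had 1572 and 1631 CPM in knockout, against 1102 and 1109 CPM in control, and Myl3 had 759 and 784 CPM in knockout, against 485 and 483 CPM in control. Their log2 fold changes were 0.53 ± 0.11 and 0.67 ± 0.13 (edgeR quasi-likelihood adjusted p = 7.01e-05 and 2.87e-05). Both light chains lost the call with totals alone, with 18S scaling, without control replicate 2, without either knockout library and with the replicate block (adjusted p from 0.0522 to 0.348), and Myl2 also without control replicate 1 (0.149). In the settings that lost the call the log2 fold change was 0.51 to 0.73 for Myl2 and 0.65 to 0.87 for Myl3. In the main fit, with TMM scaling of all 4 libraries and no replicate block, they passed the test, and the heavy chain, with far more counts, did not. Whether these changes differ from that of Myh6 was not tested, and the 95% interval of Myh6 (-0.27 to 0.23) and that of Myl2 (0.32 to 0.75) did not overlap. Ttn stood at -0.02 ± 0.11. Myom1 and Myom2, which link thick filaments in the M band, stood at 0.00 ± 0.19 and -0.46 ± 0.18. None of these 3 passed (adjusted p from 0.121 to 0.996).

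Of 22 thin filament and Z disc genes 7 were measured, of which 1 rose and 0 fell (median 0.19). Tpm1, a tropomyosin that governs the access of myosin to actin, had 933 and 941 CPM in knockout, against 588 and 603 CPM in control, a log2 fold change of 0.65 ± 0.13 (edgeR quasi-likelihood adjusted p = 1.90e-05). Its call was lost in those same settings (adjusted p from 0.0541 to 0.286, log2 fold change 0.65 to 0.85) and held without control replicate 1. Actc1, the cardiac actin that the myosin head pulls on, stood at 0.20 ± 0.11 in 3 regions that it shares with A530058N18Rik (adjusted p = 0.251). Des, the intermediate filament protein desmin, stood at -0.32 ± 0.11 (adjusted p = 0.0636) and Tcap, a titin cap at the Z disc, at -0.16 ± 0.11. Ldb3 and Xirp2 were lower counted and had wider errors, at 0.19 ± 0.23 and -0.55 ± 0.40. Of 14 regulators and noncoding RNAs tied to the heavy chain genes 2 were measured, and neither passed: Thra, a thyroid hormone receptor gene whose region also overlaps Nr1d1, at -0.12 ± 0.36, and Nkx2-5, a cardiac homeobox gene, at 0.05 ± 0.60. Myh7 and Mhrt, the antisense RNA of that neighbouring locus, were not analysed here.

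**Figure D4:**
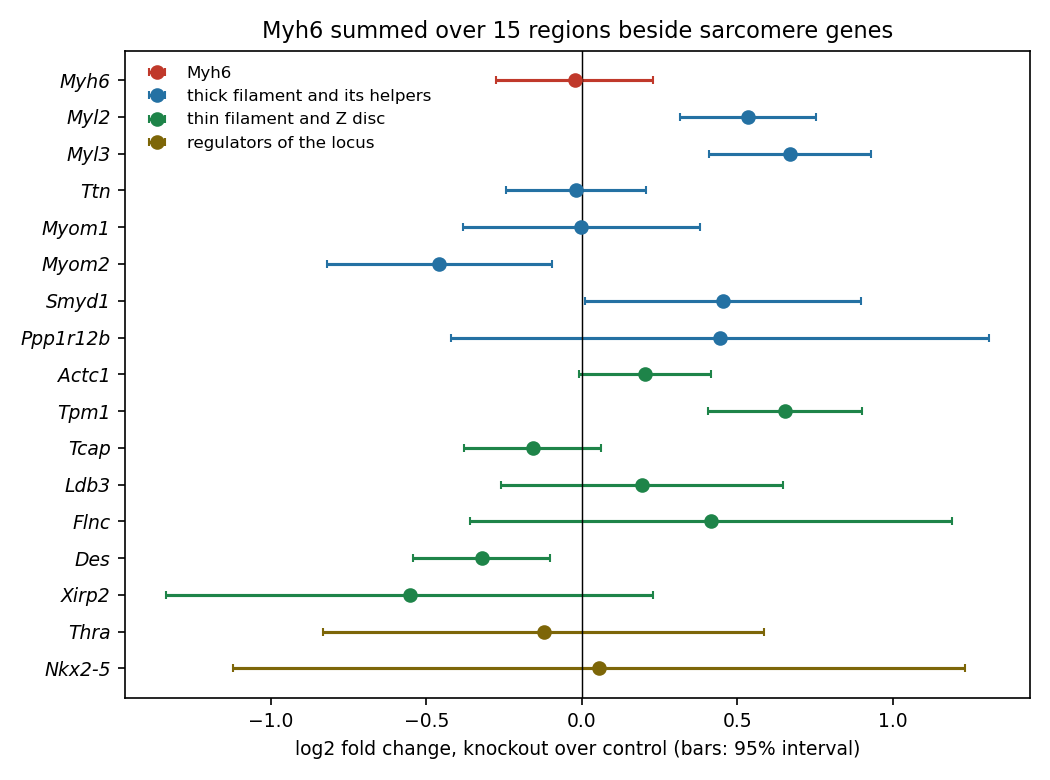
Log2 fold change of NAT10 knockout over control for Myh6 summed over 15 regions (top, red) and for measured genes of the thick filament (blue), thin filament and Z disc (green) and locus regulator (brown) lists, with 95% intervals. Myl2, Myl3 and Tpm1 lie right of 0, and Myh6 stands at -0.02 with an interval that crosses 0.

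Among 169 other genes with a mean of at least 100 CPM in regions of their own, those most like Myh6 over the 4 libraries were Mfn2, Slc25a4 and Atp2a2. Likeness was the root mean square distance of log2 CPM, each gene centred on its own mean, and it was 0.0281, 0.0299 and 0.0332 for these genes, beside a median of 0.174. Mfn2, a mitochondrial fusion protein gene, had 261 and 269.7 CPM in knockout, against 275 and 262 CPM in control. Slc25a4, the ADP/ATP carrier of heart mitochondria, had 3368 and 3547 CPM in knockout, against 3366 and 3549 CPM in control. Atp2a2 had 16040.5 and 16121 CPM in knockout, against 16761.5 and 16240.5 CPM in control. All 3 share with Myh6 a small spread over the libraries, and 4 libraries cannot rank them further.

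Of 6 heart muscle marker genes 4 were measured (Myh6, Actc1, Ryr2 and Atp2a2), and they summed to 64352 and 67584 CPM in knockout and 66487 and 66044 CPM in control. Myh6 itself made up most of that sum (42102 and 44733 CPM in knockout, 44116 and 44099 CPM in control). The sum therefore largely restates the Myh6 values and is no separate reading of heart muscle content. Of the atrial list 2 of 5 were measured, with summed levels of 444 and 455 CPM in knockout, against 2074 and 2095 CPM in control. Nppa, the atrial natriuretic peptide gene, whose region is shared with Gm13054, carried that sum, with 429 and 423 CPM in knockout, against 2006 and 2046 CPM in control. Stard10, the other measured gene of that list, did not pass (14.7 and 31.4 CPM in knockout, against 67.8 and 49.5 CPM in control, edgeR adjusted p = 0.0945). Markers measured for other cells were 1 of 8 for skeletal muscle, 2 of 7 for smooth muscle and pericytes, 1 of 6 for macrophages, 1 of 4 for red cells, 1 of 4 for adipocytes, and 0 of 5 for endothelium and fibroblasts each. Lpl, of the adipocyte list and also expressed by heart muscle, had 4138 and 3956 CPM in knockout, against 3232 and 3229 CPM in control (log2 fold change 0.33 ± 0.11, edgeR adjusted p = 0.0636). Cd74, of the macrophage list, had 103 and 103 CPM in knockout, against 48.5 and 84.4 CPM in control (0.62 ± 0.30, edgeR adjusted p = 0.21). Abcc9, of the smooth muscle and pericyte list, had 47.7 and 61.1 CPM in knockout, against 6.46 and 26.2 CPM in control (1.69 ± 0.58, edgeR adjusted p = 0.0636). In each of these 3 genes both knockout libraries stood above both controls, and none passed the test. Ckm, of the skeletal muscle list, whose region is shared with A930016O22Rik, lay the other way without overlap. It had 676.49 and 639.69 CPM in knockout, against 780 and 676.99 CPM in control. In Rgs5 and Hba-a2 the groups overlapped, and Ckm, Rgs5 and Hba-a2 did not pass either. Among all single regions of the table, 47.5% did not overlap between the groups. The part of Nppa and of the markers of other cells in the Myh6 values was not tested. Whether Abcc9 and Ckm mark only the cells of their lists in whole hearts was not tested either. In whole hearts, fewer cells of a type and less RNA per cell cannot be told apart.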

How the data were processed

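ac4C-captured heart RNA was sequenced from 2 NAT10 knockout and 2 control libraries, after removal of ribosomal RNA, as the labels' protocols state. The authors deposited whole-number counts per region, with no normalisation named in the headers. The authors' log2 fold change, p-value and q-value were deposited beside them. FastQC and Salmon stand in the submitters' processing notes with the build mm10, and no role is given for them. The positions listed for the Myh6 regions are not those of mm10 (GRCm38). Mir208a starts at 55186517 as listed and at 54949060 in GRCm38. No source used here names the region caller, the counter or the strand setting.

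The 652 lines hold 558 distinct regions, and 94 repeats were removed. Total counts were 920818 and 693922 in knockout and 674687 and 686323 in control, over the listed regions only. No label says that the libraries are from different animals, and the p-values cover the spread between these 4 samples alone, which may be technical.

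The region test was edgeR 4.0.16 under R 4.3.3, with the low-count filter filterByExpr, which all 558 regions passed. It used TMM factors (1.18 and 0.919 in knockout and 0.918 and 1.00 in control), robust glmQLFit and glmQLFTest. The Benjamini-Hochberg threshold was 0.05, and the biological coefficient of variation was 12.6%. Counts were summed per gene with the region factors kept, and genes with identical regions merged. diffSpliceDGE tested a region against the rest of its gene. DESeq2 1.42.0 was an alternative. The fits were tested on simulated data. Named regions were the 3 highest, the 3 lowest, the 2 largest changes each way and all not listed with Myh6, and the others were added so that each region is shown. Of each pathway list the 6 genes of highest level were to be named, of which 1 is not reported here. The member gene and the lists were chosen with earlier results of these data known. miRNA sequences are from RefSeq.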

Additional observations from a re-analysis of the deposited data

How the results depend on the processing

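Across 15 alternatives, 0 of 15 Myh6 regions passed in each (lowest adjusted p 0.265), and 0 had an unequal change in the 14 that test it. Of 225 single-region values under these alternatives 34 changed sign. The alternative without the low-count filter repeated the main fit, since all 558 regions passed that filter. All 15 regions stood above 0 with scaling to totals alone and to 18S, which also moved the median of all regions by 0.14 and 0.21. The median of the Myh6 regions, -0.02 with TMM factors, was 0.12 and 0.18 in these settings, and summed Myh6 was 0.10 (adjusted p = 0.904) and 0.17 (adjusted p = 0.914). Without 1 library, summed Myh6 ranged from -0.0671 to 0.0184, its highest value, without knockout replicate 1, being the only one above 0.

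Of all regions, 22 passed, against 8 with totals alone, 6 with 18S scaling, 7 with the DESeq2 Wald test and 13 to 37 without 1 library. With the replicate number as a block 1 region passed, and 0 of Myh6, whose summed value stayed at -0.02. Replicate deviations of the 2 groups correlated at r = -0.16 over 558 regions, so the crossed block was added after seeing the data, and 42 regions passed, 0 of Myh6. The labels do not say that numbers pair libraries. The causes of these shifts were not tested. With 2 libraries a group, the SE of a Myh6 region (0.12 to 0.19 on the log2 scale) limits the size of change that can be seen. The part of counting depth in that SE was not tested.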
